A study of Mus musculus with 8 samples.

Results

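The transcripts of the glutathione and antioxidant enzymes were compared in oviducts of adult mice that had received genistein (Gen), a soy phytoestrogen with estrogenic activity, as neonates. A gene belonged to the set if its name on the array was that of a glutathione transferase (Gst), glutathione peroxidase (Gpx), peroxiredoxin (Prdx), thioredoxin system protein (Txn), superoxide dismutase (Sod) or metallothionein (Mt1 to Mt4), or was Cat, Gclc, Gclm, Gss, Gsr, Ggt1, Hmox1, Nqo1, Nfe2l2 or Keap1. The rule used names only, and it gave 74 genes with 119 probes, of 27962 gene names and 41174 noncontrol probes. Oviducts came from female CD-1 mice that had been given subcutaneous injections of either corn oil (control, n = 4) or Gen at 50 mg/kg/day (n = 4) from postnatal day (PND) 1 to PND5. Superovulation and mating followed in both groups at an age of 6–8 weeks, and both oviducts of 1 mouse, collected on day 2 of pregnancy (GD2) at 48 hr after the ovulatory hormone hCG, with embryos removed, made 1 replicate. RNA labeled with 1 dye (Cy3) was hybridized to Agilent whole mouse genome arrays, 1 mouse per array. The labels name no genetic alteration in either group.

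Glutathione is a small thiol peptide that cells keep at a high concentration. Glutathione transferases attach it to reactive, electrophilic compounds, whereas glutathione peroxidases, peroxiredoxins and catalase remove peroxides, and superoxide dismutases convert superoxide to hydrogen peroxide. Many of these genes are induced by the transcription factor Nrf2 (Nfe2l2), which Keap1 holds in the cytoplasm for degradation, through antioxidant response elements, and metallothioneins are induced by metals through metal response elements. In the oviduct, where fertilization and the first cleavages take place, such enzymes are made by the tissue that surrounds the gametes and embryos.

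Most genes that passed a threshold were among the mu-class glutathione transferases, whose 7 genes form a cluster on chromosome 3. Their probes spanned chr3:107716471-107859231 in the mm7 build of the array design, a distance of 143 kb, and followed the order Gstm5, Gstm7, Gstm6, Gstm3, Gstm2, Gstm1 and Gstm4. Because mu-class transcripts resemble each other, the first 30 of the 60 bases of each probe are shown (5′ to 3′, as the files give them).
Gstm5: tctcacctatgatgtcttggatcagaaccg
Gstm7: tttcttaccatcctgttccagatcccaagc
Gstm6: ggacaagatcacctttgcagacttcctcgt
Gstm3: tagaaataccctgatggtcaatactatctt
Gstm2: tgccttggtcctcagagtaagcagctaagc
Gstm1: gcctgttcctggtggagtagcctccccagg
Gstm4: tccccatgcttgtctggagaccagagacgg
In ungapped alignments of whole probes, the pair with the most identical bases was that for Gstm1 and Gstm2, with 31 identical bases of 60 aligned. The probe for Gstm5 shared 27 of 36 aligned bases with that for Gstm6. Probes were compared only with each other and not with whole transcripts, so whether a probe also binds transcripts of another mu-class gene was not tested.

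The promoters of the set were searched on both strands for the core of the antioxidant response element (TGACNNNGC) and of the metal response element (TGCACNC or TGCGCNC), in the 250 bases before each RefSeq transcript start (GRCm38.p6). RefSeq promoters were found for 62 of the 74 genes (84 promoters). The antioxidant core occurred in 15 of the 84 (17.9%), compared with 10.2% of 32851 promoters in the table, and the metal core in 18 of 84 (21.4%), compared with 21.4%. The promoters of Gstm5 and Mt2 are shown because, among the 7 genes lower at an unadjusted p under 0.01, these held both cores. Capitals mark the cores, none of which overlapped another.
Gstm5, chr3:107895604-107895853, plus strand: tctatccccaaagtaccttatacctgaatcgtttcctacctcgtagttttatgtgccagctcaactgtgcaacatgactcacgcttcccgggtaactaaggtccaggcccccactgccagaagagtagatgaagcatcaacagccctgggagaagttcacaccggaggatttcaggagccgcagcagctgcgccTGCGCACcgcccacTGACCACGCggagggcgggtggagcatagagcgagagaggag
Mt2, chr8:94172368-94172617, plus strand: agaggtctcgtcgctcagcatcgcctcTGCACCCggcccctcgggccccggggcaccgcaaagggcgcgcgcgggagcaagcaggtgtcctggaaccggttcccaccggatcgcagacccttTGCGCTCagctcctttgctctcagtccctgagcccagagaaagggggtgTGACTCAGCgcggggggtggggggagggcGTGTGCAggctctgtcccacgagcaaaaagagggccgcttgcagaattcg
In Gstm5, TGACCACGC began 42 bases before the start and the metal core 56 bases before it. In Gstm7, TGACAAAGC began 129 bases before the start of 1 of 2 listed transcripts, downstream of the start of the other, whose own window held neither core. In Mt2, TGACTCAGC began 79 bases before the start, and metal cores began at 223, 128 and 50 bases. The same window held neither core in Gstm2, Gstm6, Gstp1 and Nqo1. These are matches of letters, and binding at them was not measured.

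Signals are given as scanner intensities scaled so that all 8 arrays had the same 75th percentile, and single probes are compared only between arrays, not with each other. Of the 74 genes, 69 were well above background on all 8 arrays, and 70 were well above background on at least 4 and were tested. Gpx5, Txndc3 and Txndc8, known from the epididymis and from sperm, were not well above background on any array, and Gpx6 was so on 3. Markers of the oviduct were present, with 10 of 10 markers of secretory epithelium, including Ovgp1 and Pax8, and 9 of 10 of ciliated epithelium well above background on all 8 arrays. The 2 groups lay on 2 separate slides, and effects of slide and of treatment cannot be told apart in any comparison below.

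By the brightest probe of each gene, most of these transcripts did not differ between the groups beyond the spread between mice. Those that passed a threshold were lower in Gen-treated mice. Less bright probes of Prdx4 and Prdx6, and Nfe2l2 with its probes averaged, were higher at an unadjusted p under 0.01. Gstm5 fell 1.96-fold and was the only 1 of the 70 genes tested to pass an adjusted p of 0.05 in limma (Benjamini-Hochberg over 29560 probes), whereas 1.00% of 19611 genes on the array did (0.571% higher and 0.433% lower). At an unadjusted p under 0.01 in limma, 7 of the 70 passed, all lower in Gen-treated mice: Gstm5, Gstm7, Gstm6, Gstm2, Gstp1, Mt2 and Nqo1. Of all genes tested, 7.43% passed this threshold, 4.14% higher and 3.29% lower. The study used the same cutoff in an analysis of variance over the probes of the array, so its counts and these differ in test and filter. The 4 Gen values lay outside the 4 control values in 9 of the 70 (12.9%), all lower, compared with 12.4% of all genes (6.27% higher and 6.10% lower). Of the 70 genes, 36 were above 0 and 34 below 0 on the log2 scale, with a median change of 0.02, compared with 54.3% of genes above 0 and a median of 0.03 for the whole array. In these whole-tissue samples, fewer cells of a type and less RNA per cell cannot be told apart.

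**Figure D1:**
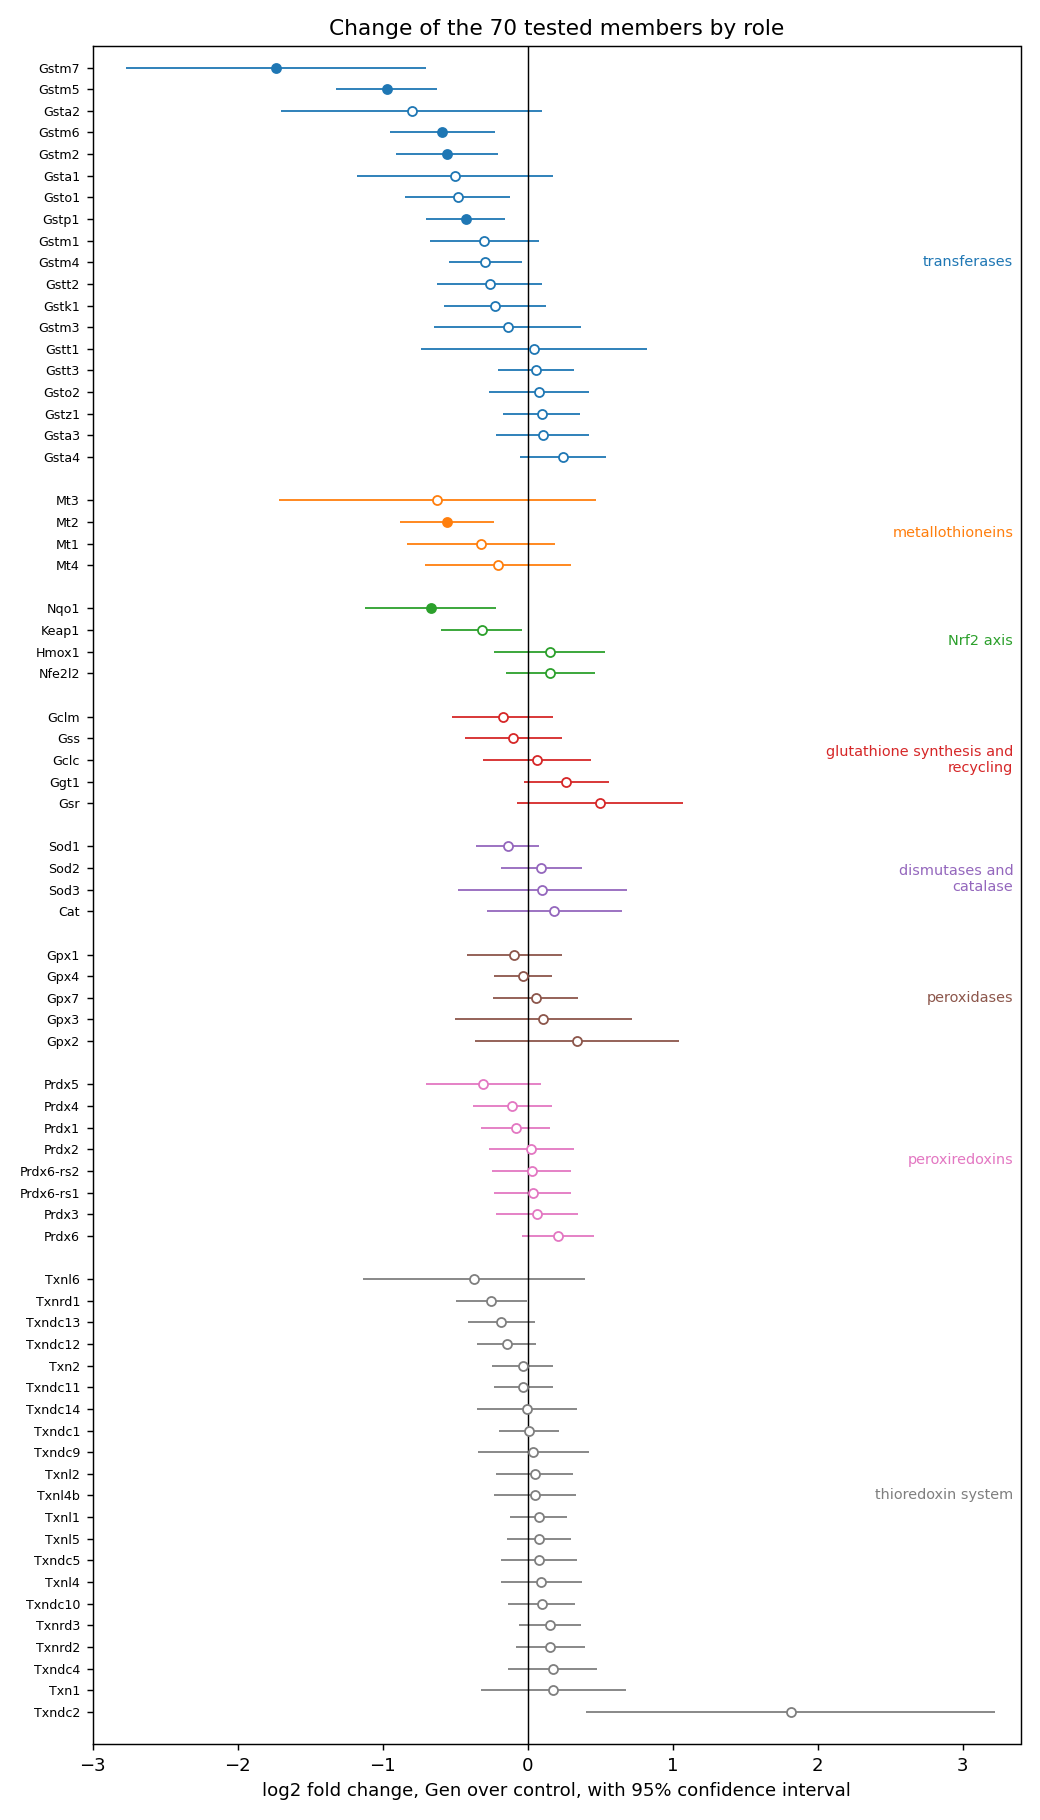
Change of each of the 70 tested genes, grouped by role, as the log2 fold change of Gen over control (points) with the 95% confidence interval (lines), n = 4 mice per group. Filled points mark the 7 genes at an unadjusted p under 0.01 in limma; all 7 lie left of 0, and 5 of them are transferases.

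The glutathione transferases held 5 of the 7 genes at the unadjusted threshold. Of 19 genes, 13 were below 0 and 6 above 0, 1 passed the adjusted threshold, and the median log2 change was -0.29. The 7 mu-class genes were all below 0, with a median of -0.56, except that Gstm3 was above 0 without scaling between arrays (0.10, where the median of all probes was 0.26) and when Gen replicate 2 was left out (0.04). The 12 transferases of other classes were divided evenly, with 6 below 0.

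Gstm5, at one end of the cluster, had control signals of 17741, 27579, 24557 and 25631 and Gen signals of 11537, 11813, 13637 and 11246. Every control mouse was higher than every Gen-treated mouse, and control replicate 1 was the lowest of the controls. The log2 change was -0.97 (SE 0.15, n = 4 per group; 95% CI, -1.32 to -0.62; limma adjusted p = 0.0401). The adjusted p was 0.023 without control replicate 1 but 0.064 to 0.109 when any 1 of the other 7 arrays was left out, and the log2 change was between -1.11 and -0.89 in these 8 fits.

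Gstm7, the next gene along the chromosome, had the lowest log2 change of the 70 genes but did not pass the adjusted threshold. Its control signals were 2608, 12961, 8053 and 9157, and its Gen signals were 2270.1, 1573, 2646 and 2146. Control replicate 1 lay within the range of the Gen-treated mice, whereas the other controls were well above it. The log2 change was -1.74 (SE 0.45; limma adjusted p = 0.108), and a second probe for the gene gave -1.66. Without control replicate 1 the change was -2.21 (adjusted p = 0.023).

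Gstm2 and Gstm6 separated the groups completely, but with smaller differences. Control signals of Gstm2 were 175734, 243266, 221721 and 217151, and Gen signals were 155762, 118113, 137484 and 173781. The highest Gen-treated mouse was just under the lowest control, and the log2 change was -0.56 (SE 0.15; limma adjusted p = 0.120). Gstm6 was measured at 433, 301, 325 and 413 in controls and at 226, 286, 209 and 254 in Gen-treated mice, a log2 change of -0.59 (SE 0.16; limma adjusted p = 0.115).

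The other mu-class genes did not pass either threshold. Gstm4, the last gene in the order, was 1404, 1615, 1342 and 1446 in controls and 1310.3, 1092, 1272 and 1077 in Gen-treated mice (log2 change, -0.29; SE 0.11), without overlap. Gstm1 and Gstm3 had log2 changes of -0.30 (95% CI, -0.68 to 0.08) and -0.14 (95% CI, -0.64 to 0.37). For both of these genes Gen replicates 2 and 3 were below all controls, and Gen replicates 1 and 4 were within or above the control range.

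**Figure D2:**
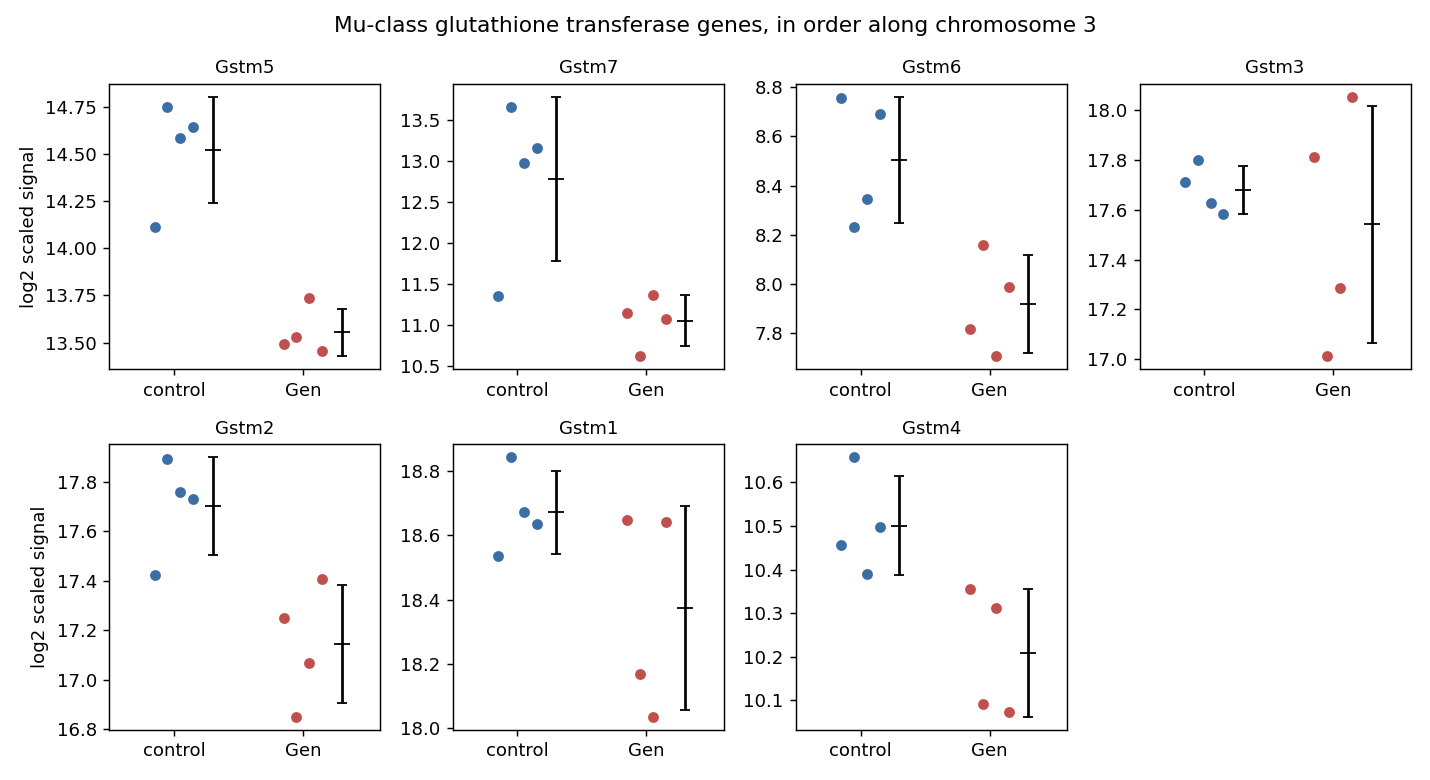
Signals of the 7 mu-class genes on each array (points, log2 of the scaled signal; blue, control; red, Gen), with the mean and SD of each group (black, n = 4), in the order of the genes along chromosome 3; each panel has its own vertical axis. The groups are separated in Gstm5, Gstm6, Gstm2 and Gstm4, and in Gstm7 control replicate 1 lies among the Gen-treated mice.

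Markers of other cell types were compared in the same samples, each list by the markers well above background on all 8 arrays and by its summed signal, in which bright probes weigh most. Of 9 markers of oocytes and preimplantation embryos, 4 were well above background on all 8 arrays, and these 4 were above 0 (median log2 change, 2.62; 0 at an unadjusted p under 0.01). Their list summed to 560 to 6487 in controls and 6173 to 42131 in Gen-treated mice, with Gdf9, an oocyte growth factor, as the brightest probe, although the embryos had been removed. Of 12 markers of ovarian steroidogenic and granulosa cells, 8 were well above background on all 8 arrays. Of these, 7 were above 0 (median, 1.25), and 3 were at an unadjusted p under 0.01. Their list summed to 14674 to 41755 in controls and 44704 to 169960 in Gen-treated mice, of which Hsd3b1 alone gave 6.14% to 62.8%. All 10 smooth muscle markers were below 0 (median, -0.26; 0 at an unadjusted p under 0.01), with summed signals of 1263300 to 1691540 and 1055590 to 1402050. Among 10 markers of secretory epithelium 6 were below 0, with a median of -0.14. Of these markers 2, Cldn3 and Wnt7a, were at an unadjusted p under 0.01, both lower in Gen-treated mice. Summed signals of the list were 1001340 to 1146950 and 847308 to 1203460, of which Ovgp1 gave 45.9% to 55%. All 9 markers of B and plasma cells well above background on all 8 arrays were above 0 (median, 1.34). Of these, 4 were at an unadjusted p under 0.01 and 2 passed the adjusted threshold, and their list summed to 55320 to 68938 and 92197 to 121645. The part of these cell types in the differences of the transferases was not tested.

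Gstp1, the pi-class transferase, which also binds and restrains the kinase JNK, was the remaining transferase at the unadjusted threshold. Its control signals were 209103, 206024, 192826 and 193104, and its Gen signals were 143728, 164935, 123419 and 167630.1. The groups did not overlap, and the log2 change was -0.43 (SE 0.12; limma adjusted p = 0.123), with -0.49 for a second probe. The mouse genome has a near-identical neighboring gene, Gstp2, so the source of this signal is uncertain.

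Transferases of the other classes did not pass either threshold. Gsto1, an omega-class enzyme that also reduces dehydroascorbate, had a log2 change of -0.48 (SE 0.16), with overlap between the groups at 1 mouse each. Gsta1 and Gsta2, alpha-class genes so alike that their probes may share transcripts, were at -0.50 and -0.80, with SEs of 0.29 and 0.39. Gsta4, which acts on the lipid peroxidation product 4-hydroxynonenal, had the largest positive value of the transferases. It was 12209, 12200.4, 13335 and 11985 in controls and 14062, 14252, 18505 and 12649 in Gen-treated mice (log2 change, 0.24; 95% CI, -0.05 to 0.54). Gstk1, Gstt1, Gstt2, Gstt3, Gsto2, Gstz1 and Gsta3 lay between -0.26 and 0.10.

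The 4 metallothioneins, small proteins that bind zinc and copper, were all below 0, with a median log2 change of -0.44, except that Mt4 was above 0 without scaling between arrays (0.04). Mt2 was 205881, 256415, 201665 and 204182 in controls and 185194, 131173, 137966 and 138429 in Gen-treated mice. The groups did not overlap, although Gen replicate 1 was well above the other Gen-treated mice. The log2 change was -0.56 (SE 0.14; limma adjusted p = 0.104).

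Mt1, which is usually induced together with Mt2, was 75551, 98827, 81715 and 89169.6 in controls and 90440.4, 46211, 60427 and 87991 in Gen-treated mice. Gen replicates 1 and 4 lay within the control range, and the log2 change was -0.32 (95% CI, -0.83 to 0.19), with -0.69 for a second probe. Mt3, a form best known from the brain, had the lowest value of the 4 at -0.62 (SE 0.48), with control signals of 9281, 4239, 2168 and 2594 and Gen signals of 4315, 2599, 1640.4 and 2147. Control replicate 1 was the highest of all, and the groups overlapped. Mt4 had the value nearest to 0, with signals of 152, 289, 222 and 215 in controls and 206, 187, 139 and 224 in Gen-treated mice (log2 change, -0.20; SE 0.22).

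In the Nrf2 axis, the target gene Nqo1, a quinone reductase, was lower in all Gen-treated mice than in any control. Nqo1 was 2230.2, 2287, 2607 and 2438 in controls and 999, 1500.2, 1834 and 1852 in Gen-treated mice. The log2 change was -0.67 (SE 0.20; limma adjusted p = 0.136), so the adjusted threshold was not passed. Keap1, the inhibitor of Nrf2, did not overlap between the groups either, at 13114, 14851, 13479.5 and 13536 in controls and 12463, 12171, 10691 and 9115 in Gen-treated mice (log2 change, -0.32; SE 0.12; adjusted p = 0.217 in limma).

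Nfe2l2, which encodes Nrf2, was 30122, 28425, 27225 and 27473 in controls and 27846, 27305, 32918 and 39628 in Gen-treated mice. Only Gen replicates 3 and 4 were above the controls, and the log2 change was 0.16 (95% CI, -0.15 to 0.47). Its 4 probes gave values from 0.16 to 0.79, none at the unadjusted threshold by itself. With values averaged over the probes of a gene, Nfe2l2 passed that threshold, higher in Gen-treated mice (limma adjusted p = 0.108). Hmox1, the heme oxygenase that is a classic target of Nrf2, had a log2 change of 0.15 (95% CI, -0.23 to 0.54).

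The 5 genes of glutathione synthesis and recycling did not pass either threshold. Gsr, the reductase that regenerates glutathione, had the largest positive value, with control signals of 7679, 4256, 4489 and 4609 and Gen signals of 7138, 5991, 5904 and 10666. Control replicate 1 was above 3 of the 4 Gen-treated mice, and all Gen-treated mice were above the other controls (log2 change, 0.50; 95% CI, -0.08 to 1.07). The 3 probes for Gsr gave values from 0.11 to 0.82, with 0 at the unadjusted threshold. Gclm, the modifier subunit of the rate-limiting glutamate-cysteine ligase, had the lowest value, with 779, 568, 635 and 625 in controls and 622, 449, 609 and 641 in Gen-treated mice (log2 change, -0.17; SE 0.15). The catalytic subunit Gclc was at 0.07 (SE 0.16). The synthetase Gss was at -0.10, and Ggt1, which cleaves glutathione outside the cell, was at 0.27.

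**Figure D3:**
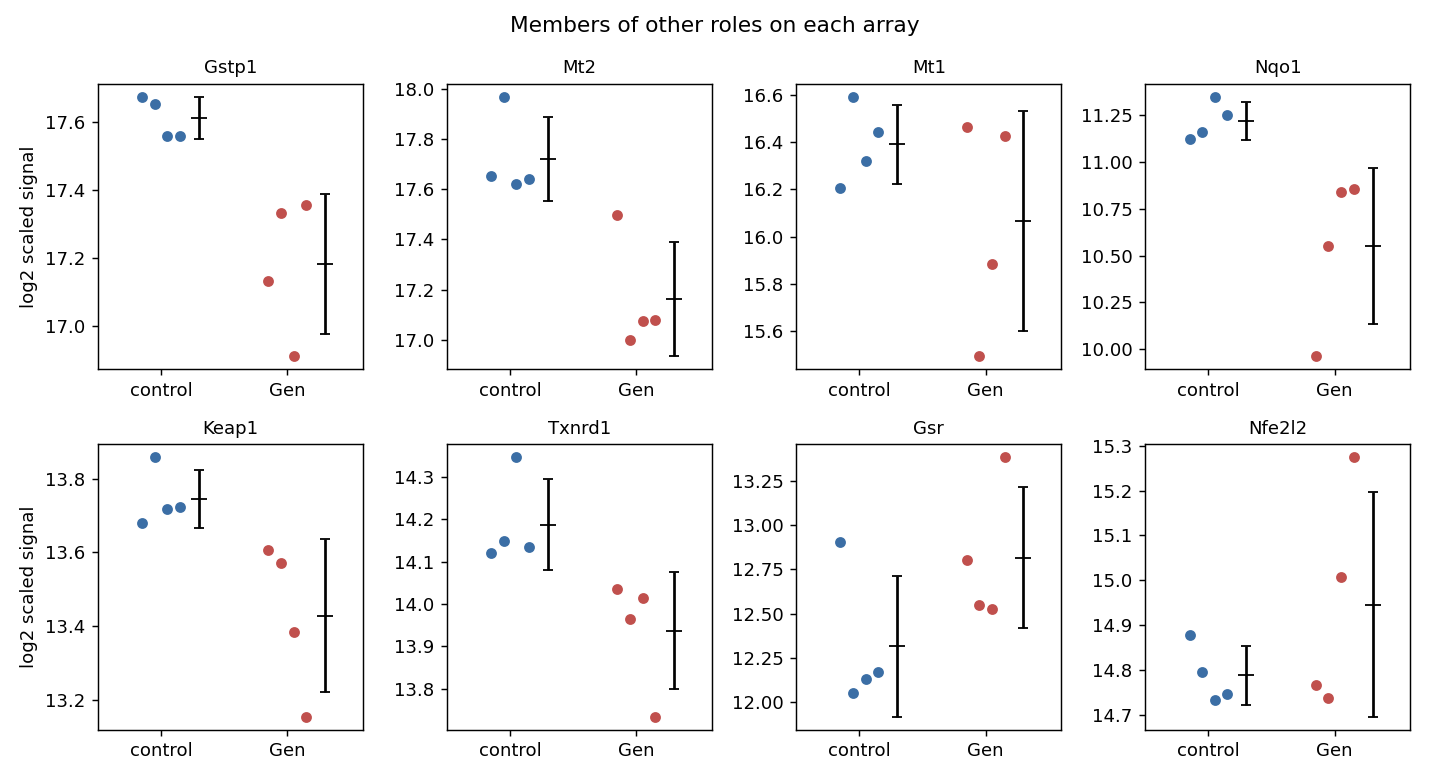
Signals of Gstp1, Mt2, Mt1, Nqo1, Keap1, Txnrd1, Gsr and Nfe2l2 on each array (points, log2 of the scaled signal; blue, control; red, Gen), with the mean and SD of each group (black, n = 4); each panel has its own vertical axis. Gstp1, Mt2, Nqo1, Keap1 and Txnrd1 do not overlap between the groups, whereas Mt1, Gsr and Nfe2l2 do.

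The enzymes that act on superoxide and peroxide directly showed no difference that passed a threshold. Sod1, the cytosolic dismutase, was 224920.5, 245696, 233937 and 244355 in controls and 238788, 209516, 197212 and 219213 in Gen-treated mice (log2 change, -0.14; 95% CI, -0.35 to 0.08). The 3 probes for Sod1 differed in sign, from -0.14 to 0.24, with 0 at the unadjusted threshold. Catalase (Cat), the peroxisomal enzyme, was 5181, 3570.4, 4153 and 3747 in controls and 3869, 4019, 4524 and 6806 in Gen-treated mice, with a log2 change of 0.18 (95% CI, -0.28 to 0.65). Its Gen replicate 4 was the highest of all 8 mice. The mitochondrial Sod2 and the extracellular Sod3 had log2 changes of 0.09 (SE 0.12) and 0.10 (SE 0.26).

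Of the 7 glutathione peroxidases, 5 were tested, and their log2 changes lay between -0.09 and 0.34. Gpx1, the widespread cytosolic form, was 80571, 93221, 80929 and 74111 in controls and 72192, 87409, 61929 and 89498 in Gen-treated mice (95% CI of the log2 change, -0.42 to 0.24). Gpx2, best known from the gut epithelium, was 3467, 3484, 3790.0 and 2883 in controls and 2143, 5356, 4866 and 6072 in Gen-treated mice. For Gpx2, Gen replicate 1 was the lowest of all mice and the other Gen-treated mice were above all controls; without that array the log2 change was 0.67 (adjusted p = 0.0916 in limma). Gpx4, which reduces lipid hydroperoxides in membranes, had the narrowest interval of the group, at -0.03 (95% CI, -0.23 to 0.17).

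The 8 peroxiredoxins, thiol peroxidases, were also within the spread between mice by the probe with the highest signal, with a median log2 change of 0.03. Prdx5 was 15671, 19954, 18439 and 19927 in controls and 16301, 17437, 16255 and 10673 in Gen-treated mice, with Gen replicate 4 the lowest of all (log2 change, -0.31; SE 0.17). Prdx6, which uses glutathione in place of thioredoxin, was 34396, 31156, 32414 and 31763 in controls and 37105, 32496, 37737 and 43428 in Gen-treated mice (log2 change, 0.21; SE 0.11). Less bright probes of the same genes differed from these values. One of the 4 probes for Prdx6 gave 0.95 and the other probe for Prdx4 gave 0.58, both at an unadjusted p under 0.01, whereas the brightest probe for Prdx4 gave -0.10. Among 26 genes of the set with at least 2 tested probes, the probes differed in sign in 9.

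The thioredoxin system had 23 genes, of which 21 were tested, 14 were above 0 and 7 below 0, with a median log2 change of 0.05. Txnrd1, the cytosolic thioredoxin reductase and an Nrf2 target, was 17801, 18169, 20827 and 17974 in controls and 16785, 15978, 16541 and 13622 in Gen-treated mice. The groups did not overlap, and the log2 change was -0.25 (SE 0.11; limma adjusted p = 0.255). Its substrate Txn1 was at 0.18 (SE 0.22), the mitochondrial Txn2 at -0.03 (SE 0.09), and the other reductases Txnrd2 and Txnrd3 were both at 0.16.

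The extremes of this system among genes well above background on all 8 arrays were Txnl6 and Txn1. Txnl6 (Nxnl1), a thioredoxin-like protein known from the retina, was 47.8, 78.7, 72.1 and 105 in controls and 67.7, 33.9, 89.7 and 49.2 in Gen-treated mice (log2 change, -0.37; SE 0.33). Txn1 was 49743, 32278, 31897 and 29385 in controls and 37267, 31002, 39123 and 54657 in Gen-treated mice, with control replicate 1 second only to Gen replicate 4. The remaining genes of the system, other than Txndc2, lay between -0.18 and 0.17.

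Txndc2, a thioredoxin of sperm, had the highest value of all genes of the set. It was 39.2, 57.3, 114 and 43.7 in controls, well above background on 3 of the 4 arrays, and 432, 431, 108 and 85.1 in Gen-treated mice. Gen replicates 1 and 2 were far above all other mice, and Gen replicates 3 and 4 were below control replicate 3 (log2 change, 1.81; SE 0.62; limma adjusted p = 0.175). The steroidogenic enzyme Cyp11a1, one of the ovarian markers, was also highest in Gen replicates 1 and 2 (23785 and 21029) and, among controls, in control replicate 3 (3903, compared with 238 to 354 in the others). Of the same list, Star, Hsd3b1 and Scarb1 had the pattern of Cyp11a1, whereas Inha, Amh, Cyp17a1, Cyp19a1, Fshr, Foxl2 and Inhba did not. Lhcgr had the same order of values, but its signal in every control was too dim to be told from background. Its value in control replicate 3 (40.7) fell short of the dimmest accepted signal of that array (65.9). Dim probes read highest on that array among the controls, so the order of the Lhcgr controls is not informative. The oocyte markers Zp2 and Zp3 also had the pattern of Cyp11a1. Nlrp5 had it only by a narrow margin, with 129.4 in control replicate 3 and 128.3 in control replicate 1. The other oocyte markers did not have it. The part of ovarian tissue or of oocytes in the Txndc2 signal was not tested.

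Genes that act next to these enzymes were examined in 4 lists of 113 genes, of which 108 were tested. At the unadjusted threshold, 10 of the 108 (9.26%) were higher in Gen-treated mice and 4 (3.70%) were lower, compared with 4.14% and 3.29% of all genes. The adjusted threshold was passed by 1 of the 108, compared with 1.00% of all genes. That gene was Slc39a4, a zinc importer of the plasma membrane, which fell from 171369, 206560.3, 206998 and 181657 in controls to 126352, 135869, 121938 and 121542 in Gen-treated mice (log2 change, -0.60; SE 0.10; limma adjusted p = 0.0453). In 7 of the 8 fits that left out 1 array, 0 genes of these lists passed the adjusted threshold. The median log2 change of the 108 genes was 0.04.

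Among 28 other genes of the glutathione cycle, 4 passed the unadjusted threshold (14.3%, compared with 4.14% of all genes), all higher in Gen-treated mice. Mgst2, a microsomal glutathione transferase that belongs to a family unrelated to the cytosolic Gst genes, was 1235, 2386, 2681 and 2731 in controls and 6359, 15461, 6915 and 6575 in Gen-treated mice. Every Gen-treated mouse was higher than any control, and the log2 change was 1.92 (SE 0.36; limma adjusted p = 0.0534). Ighm, an immunoglobulin heavy chain gene of the B cell list that was chosen after its values were seen, was likewise lowest in control replicate 1 (5248) and highest in Gen replicate 2 (30992), and the part of B cells in the Mgst2 value was not tested. The others were Idh1, a source of cytosolic NADPH (0.89, SE 0.26), Anpep, a peptidase that cleaves the dipeptide left from glutathione (0.74, SE 0.19), and Gdap1 (0.53, SE 0.13). Idh1 was highest in Gen replicates 1 and 2 (2111 and 1944) and, among controls, in control replicate 3 (1033), as was Cyp11a1, and the part of ovarian tissue in it was not tested. None of the 27 other thiol redox genes, such as glutaredoxins, passed it.

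Among the Nrf2 partners and further Nrf2 target genes, 4 of 29 tested (13.8%) passed the unadjusted threshold, again all higher. Me1, the cytosolic malic enzyme that supplies NADPH, was 1563, 1125, 2179.8 and 1109.8 in controls and 8849.7, 7515, 3166 and 4492 in Gen-treated mice (log2 change, 1.95; SE 0.36; limma adjusted p = 0.0531). Its signal was highest in Gen replicates 1 and 2 and, among controls, in control replicate 3, as was that of Cyp11a1, and the part of ovarian tissue in it was not tested. The drug exporter Abcc4 was at 0.60 (SE 0.14), the aldehyde oxidase Aox1 at 0.53 (SE 0.13) and Bach2, a repressor best known from lymphocytes, at 0.63 (SE 0.16).

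Oxidase and metal handling genes differed in both directions, with 2 of 24 higher (8.33%) and 4 lower (16.7%) at the unadjusted threshold. Noxa1, an activator of the superoxide-producing oxidase Nox1, was 303, 862, 1173 and 760.4 in controls and 281, 270.2, 236 and 89.7 in Gen-treated mice (log2 change, -1.79; SE 0.49; limma adjusted p = 0.120). Control replicate 1 was only slightly above the Gen-treated mice. Slc39a14, an importer of zinc and iron, was lower at -0.74 (SE 0.17). Cybb, the oxidase subunit of phagocytes, was higher at 0.67 (SE 0.19), and 9 of 10 macrophage markers were also above 0 (median, 0.40); their part in the Cybb value was not tested. The iron exporter Slc40a1 was higher at 0.52 (SE 0.11).

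**Figure D4:**
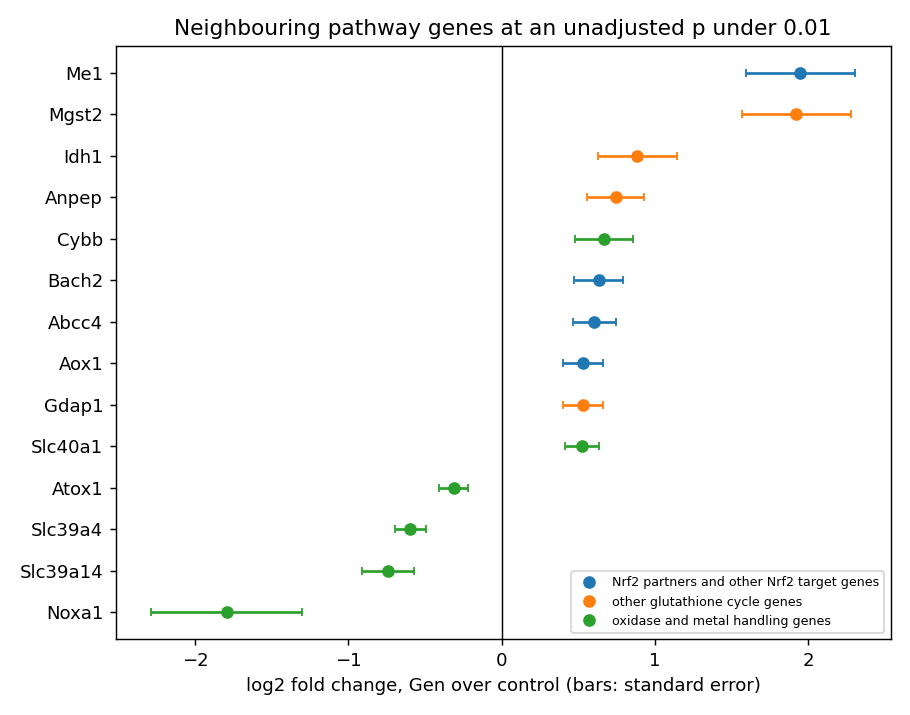
The 14 genes of the neighboring pathway lists at an unadjusted p under 0.01 in limma, as the log2 fold change of Gen over control (points) with its standard error (lines), n = 4 mice per group, colored by list. The 10 genes right of 0 include Me1 and Mgst2, and the 4 left of 0 are all in the list of oxidase and metal handling genes.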

How the data were processed

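RNA from 4 control and 4 Gen-treated oviduct samples was measured on 1 array each. For each array the authors deposited a scanner file of Agilent Feature Extraction 9.5, and the processed signal used here is a linear intensity, adjusted for background within the array and not scaled between arrays. The deposited series table held the same intensity values in all 45018 spots. Control spots and 765 outlier spots were left out, spots of a probe were averaged as log2 values, and arrays were scaled to the same 75th percentile. Probes well above background on at least 4 of the 8 arrays (29560 probes, 19611 genes) were tested with lmFit and eBayes of limma 3.58.1 in R 4.3.3, with Benjamini-Hochberg adjustment of the p-values. This filter ignored the groups, and was used because dim probes were lower on the Gen arrays as a class. A gene was represented by its probe with the highest mean log2 signal. Well above background were 25391 to 28949 probes on control arrays and 29539 to 31485 on Gen arrays, and the number of arrays limits the precision. The steps were tested on simulated data.

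Full values were given for genes of the set at an unadjusted p under 0.01 and for the largest rise and fall of each role among genes well above background on all 8 arrays, and other genes of the set were named with their values. Genes of the neighboring lists were named only at an unadjusted p under 0.01, at most 5 per list in the text, and 1 gene of these lists is not reported here. The members and lists were chosen with earlier results of these data known. Alternatives were other filters on dim probes, quantile normalization, no scaling, median scaling, normexp correction (offset 50), the inclusion of outlier spots, a robust fit with an intensity trend, a block for the replicate number, the methods' t-test, values averaged over the probes of a gene, the series table and each array left out in turn. Promoter sequences came from a RefSeq table (GRCm38.p6). Figures were drawn with matplotlib 3.10.9.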

Additional observations from a re-analysis of the deposited data

Results flagged for a closer look

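In 5 of the 40 groups of 4 arrays examined for the genes described with full values, 1 mouse lay far from the other 3 by Dixon's criterion, which chance meets in about 1 of 20 groups. Prdx5 in Gen replicate 4 was 10673, compared with 16255 in the next mouse. Mt2 was 256415 in control replicate 2 (next, 205881) and 185194 in Gen replicate 1 (next, 138429). Gclm was 449 in Gen replicate 2 (next, 609), and Gsr was 7679 in control replicate 1 (next, 4609).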

How the results depend on the processing

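Of 1469 comparisons of a single gene of the set with its value under an alternative, 73 had the other sign, in 33 genes, and 0 of these passed the unadjusted threshold in either fit. The number of genes of the set at an adjusted p under 0.05, 1 as reported, was 7 without the filter on dim probes, where 16.2% of all probes were called (3 of the 7 were Gpx5, Txndc3 and Txndc8, not well above background on any array), 2 without scaling (Gstm7 and Txndc2) and 0 with the methods' t-test. The number at an unadjusted p under 0.01, 7 as reported, was 2 without scaling and 3 with the methods' t-test. Of all probes tested, 7.16% passed this threshold as reported, 6.77% without scaling and 5.91% with the methods' t-test. Without scaling, the median change of the set was 0.26, and that of all probes was 0.26. The number of neighboring pathway genes at an adjusted p under 0.05, 1 as reported, was 13 without the filter, 3 with probes well above background on all 8 arrays or on all arrays of 1 group, 0 with quantile normalization, 4 without scaling, 3 with median scaling, 5 with normexp correction, 4 with an intensity trend, 0 with the methods' t-test and 2 with values averaged over the probes of a gene. With each array left out in turn, these 3 counts were 0 to 2, 2 to 5 and 0 to 1; the genes of the set called were 2 without control replicate 1 and 0 without any other array. Same-numbered samples did not deviate together (correlations from -0.13 to 0.04), and the main fit used no pairing by number. Whether same-numbered mice were littermates cannot be told from such correlations. With the replicate block, the 3 counts were 0, 3 and 0. Of all 29560 probes, 266 passed the adjusted threshold as reported. Without the filter 6674 of 41173 did, and with the other filters 311 and 321. The number was 238 with quantile normalization, 1026 without scaling, 378 with median scaling and 486 with normexp correction. It was 407 with an intensity trend, 11 with the methods' t-test and 239 of 19612 with averaged probes. With the replicate block it was 3, and with each array left out 2 to 275. Among the comparisons of single genes, 51 lost the unadjusted threshold, 9 gained it, and 18 of the 73 with the other sign moved by more than the spread between replicates. What caused these differences was not tested.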
